A study of Mus musculus with 2 samples.

Results

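The comparison set 54 anterior cells against 61 middle cells of the mouse second heart field at embryonic day (E) 9.5, 115 of the 1500 cells in the series. All were wild-type cells described as Osr1+ with no further genotype or treatment given, and the position of each was read from the suffix of its cell barcode, which the labels assign to anterior or middle. The tissue had been dissociated with trypsin and run on the 10x Genomics droplet platform, which counts unique molecular identifiers (UMIs), so that 1 UMI stands for 1 captured RNA molecule. The study also held 418 posterior cells of E9.5 and, at E10.5, 31 outflow tract, 45 anterior, 331 middle and 560 posterior cells. The labels do not say how many embryos were pooled or how Osr1+ cells were chosen.

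The second heart field is a sheet of splanchnic mesoderm behind the heart tube that adds cells to the outflow tract at its anterior end and to the atria and venous pole at its posterior end. It lies against the pharyngeal and foregut endoderm, an epithelium that secretes Fgf8, Shh and BMP ligands to it and that gives rise to the thyroid, the pharyngeal pouches, the trachea and the lungs. Retinoic acid made by the enzyme Aldh1a2 in posterior mesoderm sets the anterior limit of Hox gene expression in both layers. Osr1 is a zinc finger transcription factor of the posterior second heart field and of intermediate mesoderm.

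Each position was 1 library, so no difference below could be tested and none has a replicate. The levels are CPM, the UMIs of a gene in a group scaled to one fixed total of UMIs for every group. Their 95% intervals are exact Poisson intervals for levels, exact Clopper-Pearson intervals for shares of cells and conditional Clopper-Pearson intervals for folds, and all of them cover counting error only. A gene was measured when it had 30 or more UMIs over both groups, and was counted as higher or lower in anterior cells when its log2 fold, with 5 CPM added to each group, passed 1 or -1, about 2-fold. Against a group at 0 UMIs a fold is a bound computed with 3 UMIs in that group as a whole.

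The anterior library held 1296638 UMIs and the middle library 1601463. Anterior cells had a median of 23028 UMIs, from 5942 to 51618, and middle cells a median of 26700, from 5836 to 69797. No barcode was shared between E9.5 libraries. The doublet caller Scrublet marked 14 of 54 anterior cells (25.9%) and 1 of 61 middle cells (1.64%), and these cells were kept. Every cell had an Osr1 UMI. Osr1 was at 71.7 CPM (57.9 to 87.9) in anterior cells and 122 CPM (106 to 141) in middle cells, and 66.7% of anterior cells and 34.4% of middle cells carried only 1 Osr1 UMI. UMIs of embryonic haemoglobins were in anterior cells of both classes described next: Hbb-bh1, an embryonic beta globin, was at 50.1 CPM in anterior cells and 4.37 CPM in middle cells, with a UMI in 38 of 54 and in 7 of 61 cells. Of the 7 erythroid markers, the defining markers Alas2 and Klf1 were at 0 in the anterior library, no cell had 10 or more UMIs of the list, and its summed level was 143 CPM in anterior cells and 34.3 CPM in middle cells. The part of this RNA in the other differences was not tested.

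Cells were split by Epcam, a surface adhesion protein of epithelia. Cells with 2 or more Epcam UMIs, the Epcam class, were 34 of 54 anterior cells (63.0%, 48.7 to 75.7%) and 21 of 61 middle cells (34.4%, 22.7 to 47.7%). After every cell was thinned to 11500 UMIs the shares were 63.3% and 38.9%. The Epcam class thus gave 66.1% of the anterior UMIs and 45.5% of the middle UMIs, and pooled folds carry that unequal mix.

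The split was sharp in middle cells and less so in anterior cells. Just above the threshold, 1 anterior cell had 2 Epcam UMIs, 2 had 3 and 2 had 4, and no middle cell had 2 to 4. Just below it, 4 anterior cells and 2 middle cells had 1. The other genes of epithelia fitted the label of the Epcam class at both positions: the 22 junction and keratin genes without Epcam summed to 2469 CPM in its anterior cells, with single cells from 1254 to 5560, and to 2304 CPM in its middle cells, from 1388 to 3720. None of the 17 measured genes of that list passed 2-fold between positions, and their median log2 fold was -0.04. In the remaining cells, those with 0 or 1 Epcam UMI, these genes summed to 580 CPM in anterior and 251 CPM in middle cells. There, 7 of 20 anterior cells and 5 of 40 middle cells held 10 or more UMIs of the 10 epithelium markers, so the class of low Epcam was not free of epithelial RNA at the anterior position. The 10 second heart field markers, among them Isl1, Tbx1 and Mef2c, summed to 881 CPM in its anterior cells and 688 CPM in its middle cells, and the 5 leukocyte markers were at 0 in both libraries.

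Over all cells, 180 of 7545 measured genes were higher in anterior cells (2.39%) and 114 were lower (1.51%), and the median log2 fold of all measured genes was -0.06. After thinning to equal depth 109 were higher and 107 lower, so the excess of higher genes did not hold there. The 12 highest genes by the naming rule included Pax1, Nkx2-1, Foxe1 and Pax8, transcription factors of pharyngeal endoderm and thyroid, beside Sparc, Edn1, Tlx1, Hbb-bh1, Crabp1, Nrxn3, Kazald1 and Lmo2. Pax1, a paired-box factor of the pharyngeal pouches, was at 64.0 CPM (51.0 to 79.4) in anterior cells and 0.624 CPM (0.0158 to 3.48) in middle cells. Nkx2-1, the homeobox factor of thyroid and lung, was at 35.5 CPM in anterior cells and at 0 UMIs in middle cells, at least 18.9-fold higher. Edn1, the signalling peptide endothelin 1, was at 40.9 CPM against 0 UMIs, at least 21.8-fold higher in anterior cells. Nrxn3, a synaptic adhesion protein, had 39 UMIs in 12 of 54 anterior and 2 UMIs in 1 of 61 middle cells, and Lmo2, a LIM-only cofactor of blood and endothelial cells, 38 UMIs in 13 of 54 anterior and 2 UMIs in 2 of 61 middle cells. All 12 of the highest genes by the naming rule were also past 2-fold within the Epcam class alone, and 10 of the 12 within cells of low Epcam. Of these folds, 3 in the Epcam class and 6 in cells of low Epcam rested on fewer than 30 UMIs. The 12 genes were chosen by their pooled folds over the same cells, so the class counts are given as a description.

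In the other direction, Aldh1a2, the enzyme that makes retinoic acid, had 0 UMIs in anterior cells against 70.6 CPM (58.2 to 84.8) in middle cells, at least 30.5-fold lower. Wnt2, a Wnt ligand of the posterior field and lung mesoderm, had 0 UMIs in anterior cells against 56.8 CPM in middle cells, at least 24.6-fold lower. Arg1, the urea cycle enzyme arginase 1, was at 84.1 CPM (69.0 to 101) in 21 of 54 anterior cells, against 530 CPM (494 to 566) in 61 of 61 middle cells. Arg1 was thus the one gene of the lowest 12 that every middle cell carried. Of the 12 lowest genes, 5 were also past 2-fold within the Epcam class, with Epha7 on 6 UMIs, and 9 within cells of low Epcam. When the class levels were combined at the middle library's Epcam mix, 12 of the 12 highest and 12 of the 12 lowest genes stayed past 2-fold. Because these genes were chosen by their pooled folds over the same cells, all these counts are a description.

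**Figure D1:**
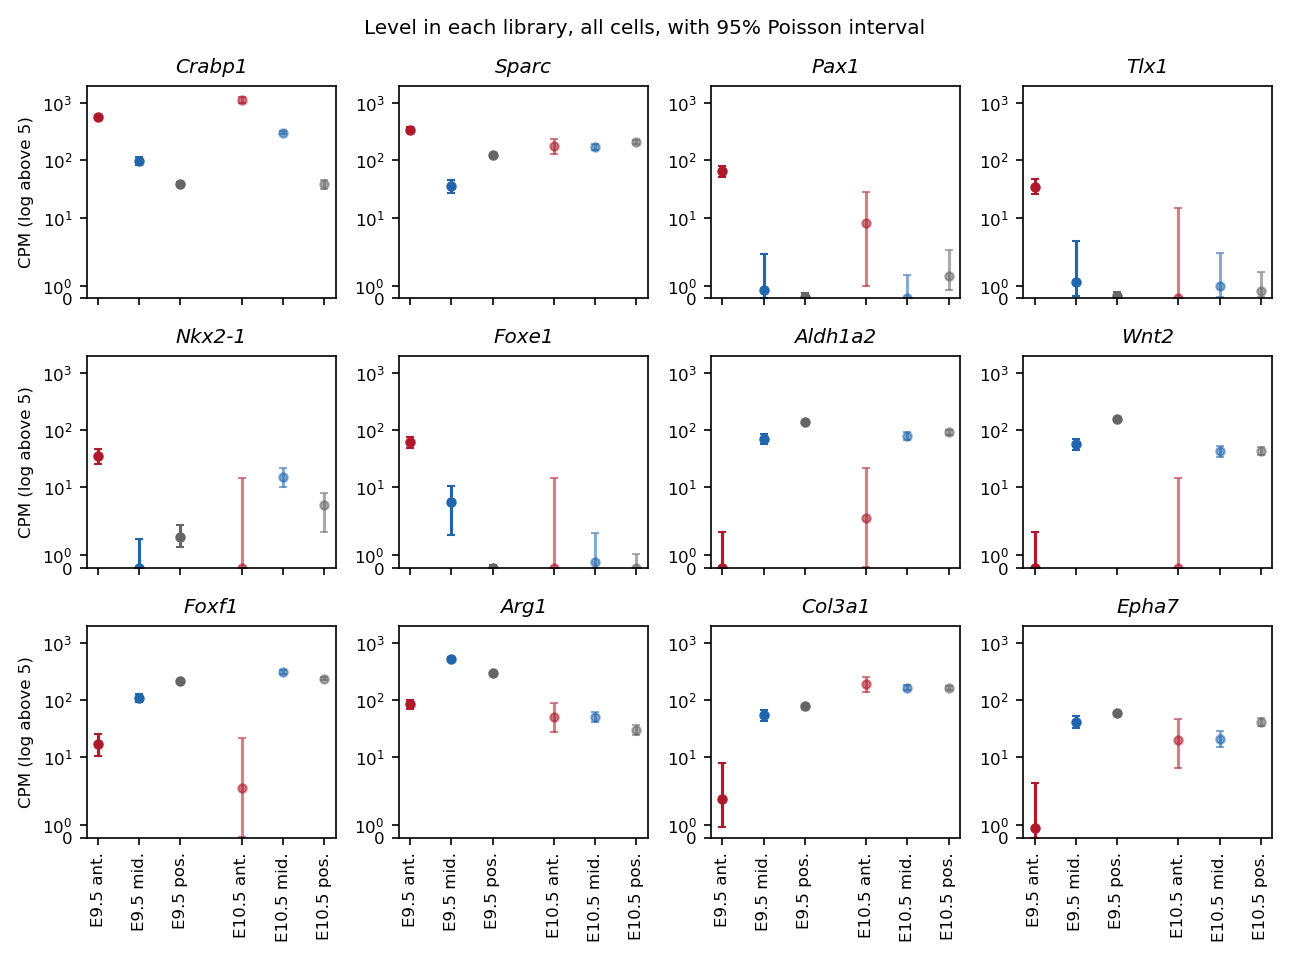
Level of 12 genes in each library over all cells (CPM, linear below 5 and logarithmic above), with E9.5 anterior, middle and posterior at left and E10.5 anterior, middle and posterior at right; points are libraries and bars are 95% Poisson intervals (counting error only). Pax1, Tlx1 and Foxe1 are high in the E9.5 anterior library, at 64.0, 34.7 and 61.7 CPM, and Aldh1a2 and Wnt2 have no UMI there.

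The E9.5 posterior library placed these levels in a wider order, which is given as a description. Crabp1, a cytoplasmic retinoic acid binding protein, was at 579 CPM in anterior, 98.7 CPM in middle and 39.0 CPM in posterior cells. Aldh1a2 ran the other way, at 0, 70.6 and 141 CPM in anterior, middle and posterior cells, and Foxf1, a forkhead factor of splanchnic mesoderm induced by Hedgehog signals, was at 17.0, 108 and 212 CPM. These sums mix the classes, and the Epcam class held 63.0, 34.4 and 15.1% of anterior, middle and posterior cells. Within it Crabp1 was at 316, 57.7 (41.6 to 77.9) and 51.9 CPM (42.8 to 62.4) in anterior, middle and posterior cells, so that middle and posterior overlapped, and Aldh1a2 had 0 UMIs in anterior and middle cells against 48.2 CPM in posterior cells. In cells of low Epcam Crabp1 was at 1092, 133 and 36.5 CPM, and Aldh1a2 at 0, 129 (107 to 156) and 158 CPM (151 to 166) in anterior, middle and posterior cells, where the last 2 overlapped. Some genes did not follow such an order: Arg1 was highest in the middle, at 530 CPM between 84.1 CPM in anterior and 291 CPM in posterior cells, and Sparc, a secreted matrix protein, was lowest there, at 35.6 CPM between 345 CPM in anterior and 125 CPM in posterior cells.

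Within the Epcam class, 169 of 5656 measured genes were higher in anterior cells (2.99%) and 87 were lower (1.54%), and the median over all measured genes was -0.02. Of the 30 regional regulators of pharyngeal endoderm listed, 20 were measured, of which 11 were higher in anterior cells and 2 were lower, with a median log2 fold of 1.30. Pax1, Nkx2-1 and Pax8 had no UMI in middle cells and reached the minimum of 30 UMIs through anterior cells alone, so that they had to differ, and the count is given as a description. The higher members included Pax1, Nkx2-1, Fgf8, Pax8, Nkx2-5, Foxe1, Nkx2-3, Tbx3, Fgf3 and Nkx2-6, and the lower ones were Shh and Irx2. Members that did not pass 2-fold included Pax9, the paralogue of Pax1, at 73.5 CPM (56.5 to 94.0) in anterior and 70.0 CPM (52.1 to 92.1) in middle cells.

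Pax1 was at 96.8 CPM in 14 of the 34 anterior Epcam cells and at 0 UMIs in the 21 middle ones, at least 23.5-fold higher. The gene lies at chr2:147361925-147393295 on the forward strand of GRCm38. Its UMIs were spread over cells, the fullest cell holding 26.5% of them. In the anterior cells of low Epcam Pax1 was also at 0 UMIs, 0 of 20 cells, which allows a share of cells with a UMI of up to 15.0% by the floor of 3 cells. Edn1 was at 47.8 CPM in 13 of 34 anterior Epcam cells and at 0 UMIs in the middle ones, at least 11.6-fold higher. Of the 14 cells with Pax1, 11 also had Edn1, 11 had Pax9 and 8 had Fgf8.

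Nkx2-1, Pax8 and Foxe1 are transcription factors that together mark the thyroid primordium, a bud of the pharyngeal floor. Nkx2-1 (chr12:56531958-56536908) was at 43.2 CPM in 8 of 34 anterior Epcam cells and at 0 UMIs in the middle ones, at least 10.48-fold higher. Pax8 (chr2:24420560-24475599) was at 36.2 CPM in 12 of 34 anterior cells and at 0 UMIs in the middle ones, at least 8.78-fold higher. Foxe1 (chr4:46343609-46346412) was at 81.7 CPM (63.7 to 103) in 14 of 34 anterior cells, against 12.4 CPM (5.65 to 23.5) in 5 of 21 middle cells. All 8 anterior cells with Nkx2-1 had Foxe1, and 5 of the 8 had Pax8 as well. Of the 8, 1 had Pax1 and 1 had Fgf8, while 4 of the 14 cells with Foxe1 had Pax1. Hhex, another homeobox factor of the thyroid and liver buds, had 17 UMIs in 6 of 34 anterior cells and 1 UMI in 1 of 21 middle cells, too few to be measured. Of the 8 anterior cells with Nkx2-1, 2 had Hhex. These pairs of genes were chosen after their values were seen.

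Among the growth factors, Fgf8, which the pharyngeal epithelium signals with to the second heart field, was at 119 CPM (97.0 to 145) in 16 of 34 anterior Epcam cells, against 8.24 CPM (3.02 to 17.9) in 3 of 21 middle cells, a log2 fold of 3.23 (2.38 to 3.99). Fgf3 was at 37.3 CPM in anterior and 11.0 CPM in middle cells, with 43.8% of its anterior UMIs in 1 cell. Bmp4 was at 78.2 CPM (60.6 to 99.3) in anterior and 12.4 CPM (5.65 to 23.5) in middle cells. The intervals of Fgf8 and Bmp4 did not overlap between positions. Nkx2-5, a homeobox factor of heart progenitors that also marks pharyngeal endoderm, was at 133 CPM in 24 of 34 anterior cells, against 21.97 CPM in 8 of 21 middle cells. Irx2, an Iroquois homeobox factor and one of the lower members of the list, was at 16.3 CPM in 8 of 34 anterior and 90.6 CPM in 15 of 21 middle cells.

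Of the BMP pathway, 6 of 12 measured genes were higher in anterior Epcam cells and none was lower, with a median of 1.05. The 6 were the ligand Bmp4, the targets Msx1, Msx2, Id3 and Id4 and the inhibitory Smad6. Id3, an inhibitor of basic helix-loop-helix factors, was carried by every cell of the class and had cell medians of 1084 CPM in anterior and 508 CPM in middle cells. Id1 and Id2, of the same family, did not pass 2-fold: Id1 was at 606 CPM in anterior and 509 CPM in middle cells, and Id2 at 760 and 798 CPM. Of 6 measured Notch genes, 3 were higher, the ligand Jag1 and the targets Hey1 and Hey2, and none was lower. Over all measured genes of the class 2.99% were higher and 1.54% lower. Jag1 and Msx1 had 2 UMIs each in middle cells and reached the minimum of 30 UMIs through anterior cells. The BMP and Notch counts are therefore given as a description. Jag1 was at 51.3 CPM in 12 of 34 anterior cells, against 2 UMIs in 2 of 21 middle cells, an 18.7-fold difference with an interval of 4.88 to 159. Msx1, a homeobox factor that BMP induces, had 38 UMIs in 16 of 34 anterior and 2 UMIs in 2 of 21 middle cells, 16.2-fold more of all UMIs in anterior cells (4.17 to 138).

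Among genes with UMIs at both positions, Sparc had the highest log2 fold of the class, 4.53 (3.78 to 5.26). It was at 365 CPM (326 to 408) in 26 of 34 anterior cells, against 11.0 CPM (4.74 to 21.6) in 7 of 21 middle cells. Its cell median was 178 CPM in anterior cells and 0 in middle cells, and the fold was 4.26 without its fullest cell. Pmp22, a membrane protein of myelin that is also made in epithelia, was at 169 CPM in 15 of 34 anterior cells and 12.4 CPM in 5 of 21 middle cells. Cxcl12, a chemokine, had 37 UMIs in 14 of 34 anterior cells against 1 UMI in the middle ones. Vgll2, a cofactor of TEAD factors, had 38 UMIs in 8 of 34 anterior cells and none in the middle ones, at least 10.8-fold higher, but 63.2% of them were in 1 cell.

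Other genes of endoderm were lower in anterior cells of the class. Shh, the Hedgehog ligand, was at 9.33 CPM (4.03 to 18.4) in 6 of 34 anterior Epcam cells, against 93.4 CPM (72.5 to 118) in 11 of 21 middle cells, a log2 fold of -2.78 (-3.52 to -1.98). Foxa2, a forkhead pioneer factor of endoderm, was at 17.5 CPM (9.79 to 28.9) in 7 of 34 anterior cells, against 113 CPM (89.5 to 140) in 17 of 21 middle cells. Its paralogue Foxa1 was at 11.7 CPM (5.59 to 21.4) in 9 of 34 anterior cells, against 54.9 CPM (39.2 to 74.8) in 14 of 21 middle cells. At equal depth, Foxa2 had a UMI in 15.2% of anterior and 66.7% of middle cells. Of the 11 middle cells with Shh, 10 had Foxa2. Of the foregut, liver, lung and stomach list, 4 of 6 measured genes were lower in anterior cells, Foxa2, Foxa1, Gata6 and Ttr, and 1 was higher, Nkx2-1. Among all measured genes of the class 1.54% were lower and 2.99% higher. For Ttr, transthyretin, 88.0% of the middle UMIs came from 1 cell.

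Of the genes named here, only Foxa1 and Foxa2 had their promoters examined one by one for a forkhead motif in the RefSeq table used (GRCm38.p6, 250 bases before to 50 after the start), because both genes were lower and Foxa factors bind such a motif. The window of Foxa1 holds it. That window is chr12:57546062-57546361 on the reverse strand, written 5′ to 3′ along the gene, and the capitals mark GTAAACA, which reads TGTTTAC on the other strand.
Foxa1: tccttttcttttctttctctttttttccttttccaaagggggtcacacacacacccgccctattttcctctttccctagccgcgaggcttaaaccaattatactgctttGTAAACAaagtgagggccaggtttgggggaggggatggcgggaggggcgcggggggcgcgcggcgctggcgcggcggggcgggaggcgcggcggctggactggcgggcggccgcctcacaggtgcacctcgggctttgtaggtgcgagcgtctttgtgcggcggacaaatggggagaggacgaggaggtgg
The motif TGTTTAC, searched on both strands, is in 1199 of 32851 such windows (3.65%). The 3 windows of Foxa2 in that table hold no copy of these letters. A match is a description of the letters and shows no binding.

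Hox genes were lower in anterior cells of this class as well. Of 4 measured, 3 were past 2-fold, Hoxc4 and Hoxb1 among them, and the median was -1.95. Among all measured genes of the class 1.54% were lower and the median was -0.02. Hoxc4 reached the minimum of 30 UMIs through its 33 middle UMIs, so the Hox count is given as a description. Hoxb1 was at 45.5 CPM (32.4 to 62.2) in 14 of 34 anterior cells, against 165 CPM (137 to 197) in 21 of 21 middle cells. Tbx1, the T-box factor of pharyngeal endoderm and mesoderm, was just inside 2-fold, at 81.7 CPM (63.7 to 103) in 12 of 34 anterior cells and 165 CPM (137 to 197) in 14 of 21 middle cells.

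Arg1 was at 106 CPM (85.5 to 130) in 14 of 34 anterior Epcam cells, against 450 CPM (403 to 502) in 21 of 21 middle ones. Of the 14 anterior cells with Arg1, 10 had Hoxb1, 10 had Fgf8 and 9 had Tbx1, while 2 had Pax1 and 3 had Foxe1. The heat map of the class draws these cells as a block apart from most cells with Pax1 or Foxe1. Its cells are sorted by the plotted genes, so the block follows from the sort and adds nothing to these counts. Vtn, the plasma and matrix protein vitronectin, had 0 UMIs in anterior cells against 43.9 CPM in 15 of 21 middle cells, at least 12.6-fold lower. Cpn1, a carboxypeptidase subunit, had 3 UMIs in 3 of 34 anterior cells and 55 UMIs in 16 of 21 middle cells, 21.6-fold more of all UMIs in middle cells (7.01 to 108). Car4, a membrane carbonic anhydrase, was at 67.7 CPM in 14 of 34 anterior cells, against 291 CPM in 20 of 21 middle cells. Raet1e, a ligand of natural killer cell receptors, had 8 UMIs in 3 of 34 anterior and 62 UMIs in 15 of 21 middle cells, and Tuba4a, an alpha tubulin, 13 UMIs in 8 of 34 anterior and 62 UMIs in 18 of 21 middle cells. E030030I06Rik had 5 UMIs in 5 of 34 anterior and 54 UMIs in 13 of 21 middle cells.

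**Figure D2:**
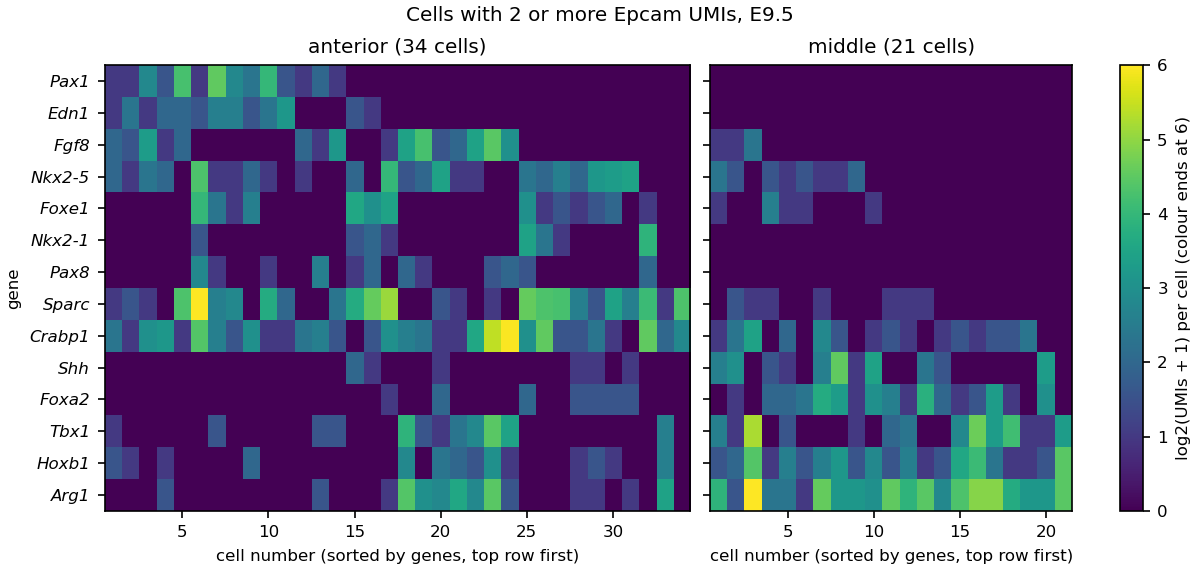
UMIs of 14 genes (rows) in each cell of the Epcam class (columns), 34 anterior cells at left and 21 middle cells at right, as log2 of UMIs plus 1; cells are sorted by the genes from the top row down. Pax1, Nkx2-1 and Pax8 are dark in all 21 middle cells, and the 8 anterior cells with Nkx2-1 all have Foxe1.

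In cells with 0 or 1 Epcam UMI, 106 of 5015 measured genes were higher in the 20 anterior cells (2.11%) and 244 were lower (4.87%). Without the 7 anterior cells and 1 middle cell that Scrublet marked in this class, 468 genes were lower, and without cells of cardiomyocyte markers 68 were higher. The median over all measured genes was -0.18 in this class and -0.07 with totals that left out mitochondrial, haemoglobin and ribosomal protein genes, so these folds sit on a small shift of scale. Of the genes past 2-fold, 30.3% were higher in anterior cells, against 41.5% with those totals and 41.1% with TMM scaling. The 24 genes that the naming rule gave in this class kept their direction under both scalings, and list members outside it were not recomputed.

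The list of anterior and pharyngeal second heart field genes had 6 of 13 measured members higher in anterior cells and 1 lower, Foxc2. The higher members included Tlx1, Isl1, Mef2c, Hand2 and Tcf21, and the list median was 0.67. The shares over all measured genes of the class were 2.11% higher and 4.87% lower, and their median was -0.18. Tlx1 reached the minimum count through its 38 anterior UMIs, so the list count is given as a description. Tlx1, a homeobox factor known for spleen formation, was at 86.5 CPM (61.2 to 119) in 10 of 20 anterior cells, against 2 UMIs in 2 of 40 middle cells, a 37.8-fold difference with an interval of 9.76 to 323. Isl1, the LIM-homeobox factor that defines the second heart field, was at 216 CPM (175 to 264) in 16 of 20 anterior cells, against 49.3 CPM (35.6 to 66.3) in 21 of 40 middle cells. Mef2c, a MADS-box factor of muscle progenitors, was at 112 CPM (82.5 to 147) in 11 of 20 anterior cells, against 24.1 CPM (14.9 to 36.8) in 14 of 40 middle cells. All 10 anterior cells with Tlx1 had Isl1, and 8 of the 10 had Tcf21, a basic helix-loop-helix factor of branchiomeric and epicardial progenitors. Tbx1 did not differ beyond its counting interval by level, at 102 CPM (74.7 to 137) in anterior and 110 CPM (89.1 to 134) in middle cells, although 10 of 20 anterior and 32 of 40 middle cells had a UMI.

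Muscle genes were higher in the anterior sum of this class, and single cells held much of the difference. Of the cardiac sarcomere list, 9 of 9 measured genes were higher, with a median of 2.38, against 2.11% of all measured genes of the class. Actc1, Ttn and Myh7 had 2, 6 and 3 UMIs in middle cells. They reached the minimum of 30 UMIs largely through anterior cells, so the count is given as a description. Actc1, cardiac actin, was at 100 CPM in 8 of 20 anterior cells and 2.29 CPM in 2 of 40 middle cells. In anterior cells 65.9% of its UMIs were in 1 cell, and its log2 fold was 3.85 with that cell and 2.52 without it. Tagln, a smooth muscle actin-binding protein, held 58.6% of its anterior UMIs in 1 cell and had a log2 fold of 2.89 with it and 1.78 without it. The 8 cardiomyocyte markers summed to 1941 CPM in anterior and 503 CPM in middle cells, but the cell medians were 106 CPM in anterior and 164 CPM in middle cells and the fullest cells had 13240 and 2604 CPM. Without the 6 anterior and 10 middle cells that held 10 or more UMIs of these markers, the median of the sarcomere list was -0.15. Myh7, a cardiac myosin, had 27 UMIs in anterior cells, 59.3% of them in 1 cell, and 3 UMIs in middle cells. Ttn, titin, had a log2 fold of 2.95 with its fullest anterior cell and 2.12 without it. Myl7, an atrial myosin light chain, was at 853 CPM in 8 of 20 anterior cells and 221 CPM in 30 of 40 middle cells.

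Crabp1 was at 1092 CPM in anterior and 133 CPM in middle cells of low Epcam. A single anterior cell held 62.1% of its anterior UMIs, and the log2 fold was 2.99 with that cell and 1.76 without it. Crabp1 was in 18 of 20 anterior and 28 of 40 middle cells, with cell medians of 171 and 87.2 CPM. 3632451O06Rik had 76 UMIs in 10 of 20 anterior cells, 42.1% of them in 1 cell, and 14 UMIs in 8 of 40 middle cells. Gng11, a G protein gamma subunit, was at 312 CPM (262 to 369) in 11 of 20 anterior cells, against 33.2 CPM (22.3 to 47.7) in 17 of 40 middle cells. Cystm1 had 31 UMIs in 6 of 20 anterior cells and 0 in middle cells, at least 20.5-fold higher. Kazald1 had 31 UMIs in 8 of 20 anterior cells and 2 UMIs in 1 middle cell, and Igfbp3, an insulin-like growth factor binding protein, 36 UMIs in 8 of 20 anterior and 2 UMIs in 2 of 40 middle cells. Among genes with UMIs at both positions, 5430431A17Rik had the highest log2 fold of the class, 4.03, with 50 UMIs in 5 of 20 anterior cells, 46.0% of them in 1 cell, and 2 UMIs in 1 middle cell. Edn1 was also in this class, with 12 UMIs in 8 of 20 anterior cells and 0 UMIs in the 40 middle cells. Foxe1 and Nkx2-1 had 10 and 9 UMIs in 3 and 4 of the 20 anterior cells, and 1 cell held 70.0% and 66.7% of them.

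The list for the venous pole and the posterior part of the field ran the other way in cells of low Epcam, with 7 of 11 measured members lower in anterior cells, none higher and a median of -1.35. They included Aldh1a2, Wnt2, Foxf1, Hoxb1, Nr2f1 and Osr1, and Osr1 was the gene the cells had been described by. Aldh1a2 and Wnt2 had no UMI in anterior cells and reached the minimum count through middle cells alone, so that they had to differ. The count is therefore given as a description. Of all measured genes of the class, 4.87% were lower and 2.11% higher, and their median was -0.18. Aldh1a2 (chr9:71215789-71296243) had 0 UMIs in the 20 anterior cells, against 129 CPM (107 to 156) in 29 of 40 middle cells, at least 19.0-fold lower. Wnt2 (chr6:17988940-18030585) had 0 UMIs in anterior cells, against 103 CPM (82.9 to 127) in 21 of 40 middle cells, at least 15.1-fold lower. By the floor of 3 cells, a count of 0 in 20 cells allows a share of cells with a UMI of up to 15.0%. In the middle library's Epcam class, Aldh1a2 had a UMI in 0 and Wnt2 in 1 of 21 cells, with medians of 32161 UMIs per cell there and 24241.5 in middle cells of low Epcam. Of the 21 middle cells with Wnt2, 19 had Aldh1a2 and 14 had Foxf1.

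Foxf1 was at 41.0 CPM (24.3 to 64.7) in 4 of 20 anterior cells of low Epcam, against 196 CPM (168 to 227) in 24 of 40 middle cells. Arg1 was at 41.0 CPM (24.3 to 64.7) in 7 of 20 anterior cells, against 596 CPM (546 to 649) in 40 of 40 middle cells, a log2 fold of -3.71 (-4.37 to -3.09). At equal depth Arg1 had a UMI in 18.8% of anterior and 97.0% of middle cells. Its level was therefore lower in anterior cells of both classes, and in both classes every middle cell had it. Nr2f1, a nuclear receptor of venous and atrial cells, had its 15 anterior UMIs in 1 cell and was in 19 of 40 middle cells. Tbx5, a T-box factor of the posterior field and atria, had 0 UMIs in anterior cells and 19 UMIs in 11 of 40 middle cells, too few to be measured.

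Of 17 measured mesenchymal genes, 6 were lower in anterior cells of low Epcam, Col3a1, Meox1, Twist2, Pdgfra, Prrx1 and Cdh2, and 1 was higher, Tcf21. Among all measured genes of the class 4.87% were lower and 2.11% higher. Col3a1 reached the minimum of 30 UMIs through its 87 middle UMIs, so the count is given as a description. Col3a1, fibrillar collagen, was at 9.10 CPM (2.48 to 23.3) in 3 of 20 anterior cells, against 99.7 CPM (79.8 to 123) in 24 of 40 middle cells. The 7 mesenchyme markers together were at 323 CPM in anterior and 573 CPM in middle cells of this class, and their part in the difference was not tested. Cldn11, a tight junction claudin, had 0 UMIs in anterior cells, against 72.2 CPM in 17 of 40 middle cells, at least 10.6-fold lower. Epha7, an ephrin receptor, had 1 UMI in anterior cells and 61 UMIs in 27 of 40 middle cells, and Flrt2, an adhesion protein, 3 UMIs in 2 anterior cells and 76 UMIs in 30 of 40 middle cells. Sparcl1, a matrix protein related to Sparc, had 1 UMI in anterior cells and 64 UMIs in 17 of 40 middle cells, so that it ran opposite to Sparc, which was at 305 CPM in anterior and 56.1 CPM in middle cells. Foxp2, Tshz1 and Cdk6 had 1, 2 and 1 UMIs in anterior cells and 38, 47 and 34 UMIs in middle cells.

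**Figure D3:**
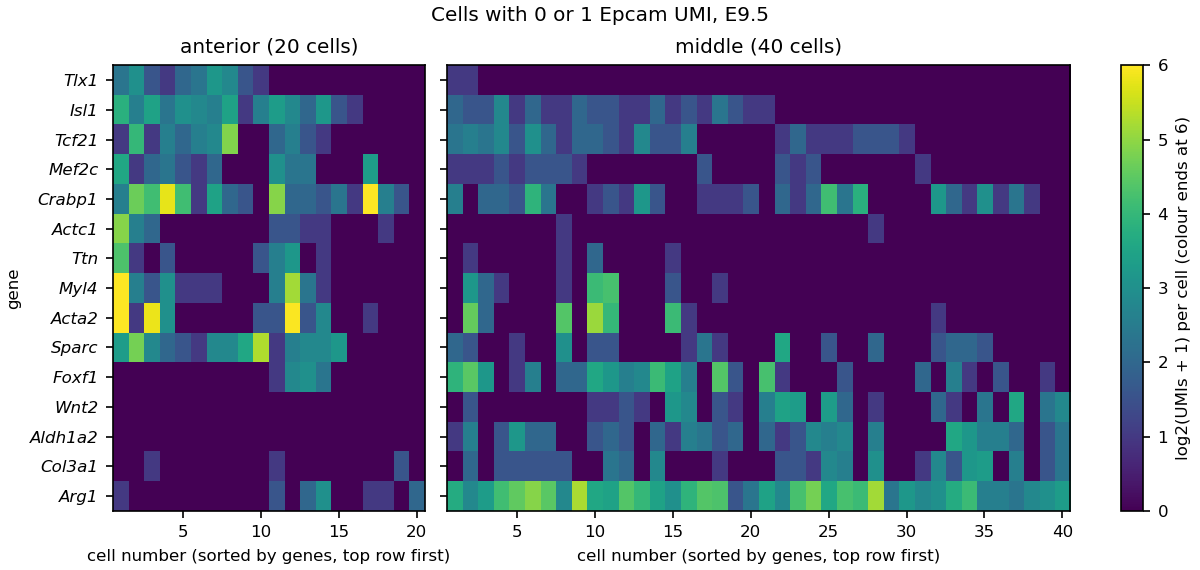
UMIs of 15 genes (rows) in each cell with 0 or 1 Epcam UMI (columns), 20 anterior cells at left and 40 middle cells at right, as log2 of UMIs plus 1; cells are sorted by the genes from the top row down. Tlx1 is in 10 of 20 anterior and 2 of 40 middle cells, Aldh1a2 and Wnt2 are dark in all anterior cells, and Arg1 is lit in all 40 middle cells.

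Retinoic acid and Wnt genes gave mixed counts in this class, where 2.11% of all measured genes were higher and 4.87% lower. Of 7 measured retinoic acid genes, Crabp1 was higher in anterior cells and Aldh1a2 and Rdh10, the retinol dehydrogenase before it in the pathway, were lower, with a median of -0.27. Rdh10 was at 43.2 CPM in 5 of 20 anterior cells, against 104 CPM in 30 of 40 middle cells. Of 8 measured Wnt genes, Lef1, a nuclear effector, was higher and 4 were lower: the ligand Wnt2, the receptor Fzd2, the enhancer Rspo1 and the inhibitor Sfrp1. Aldh1a2 and Wnt2 reached the minimum count through middle cells alone, so the retinoic acid and Wnt counts are given as a description. Of 7 measured BMP genes, Id1 and Id3 were higher and none was lower. Id1 was at 733 CPM (655 to 817) in 20 of 20 anterior cells, against 171 CPM (144 to 200) in 31 of 40 middle cells, whereas Bmp4 itself was at 31.9 CPM (17.4 to 53.5) in anterior and 56.1 CPM (41.5 to 74.2) in middle cells. Over all cells, 13 of 13 measured BMP genes had a log2 fold above 0, against 3288 of all 7545 measured genes, and 5 were past 2-fold higher, against 2.39% of all. Those sums mix the classes. Above 0 were 10 of 12 measured BMP genes in the Epcam class and 6 of 7 in cells of low Epcam. Among all measured genes of these classes, 2701 of 5656 and 1653 of 5015 were above 0.

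**Figure D4:**
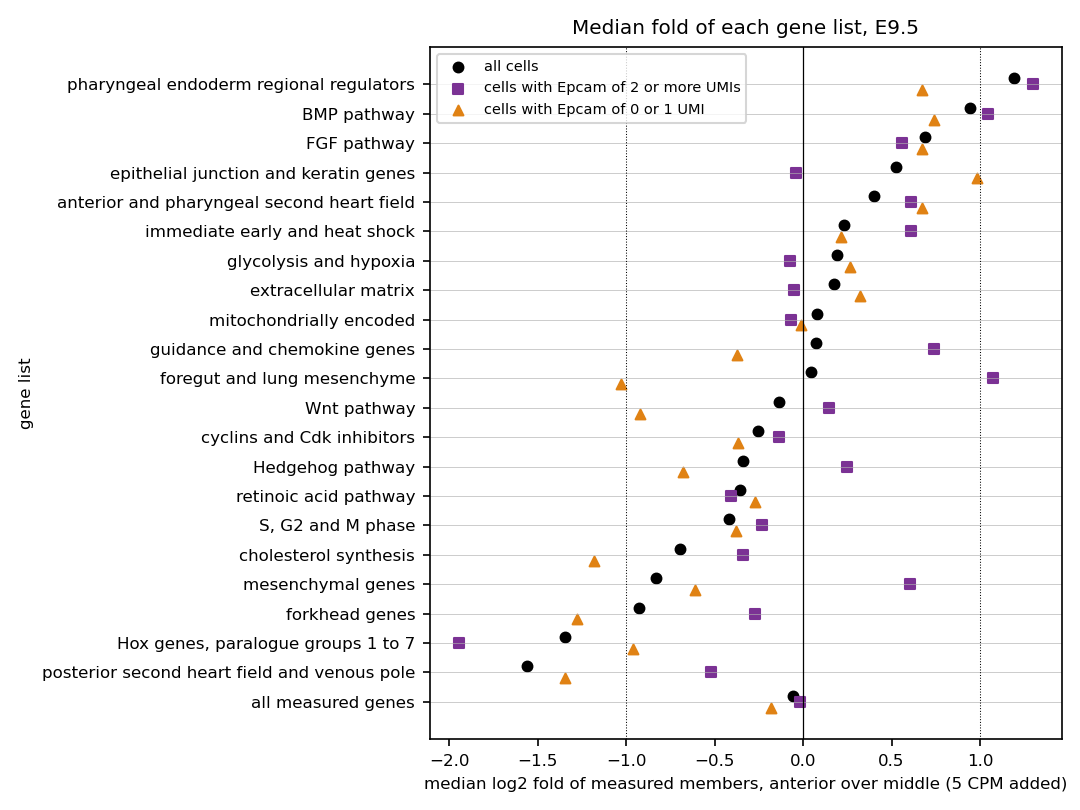
Median log2 fold, anterior over middle with 5 CPM added, of the measured genes of each list with 3 or more measured members, in all cells (circles), cells with 2 or more Epcam UMIs (squares) and cells with 0 or 1 (triangles); dotted lines mark 2-fold. Pharyngeal endoderm regulators and BMP genes lie right of 0 in all populations, and Hox genes and the posterior second heart field list lie left of 0, while the medians of all measured genes are -0.06, -0.02 and -0.18.

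Some genes differed by position in both classes, which came from the same library at each position, so that the classes are not independent. Of the 4698 genes measured in both, 22 were higher in anterior cells of both classes, of the 100 higher in the Epcam class and the 65 higher in cells of low Epcam (33.8% of these). They included the transcription factor Nkx2-5, the retinoic acid binding protein Crabp1, Sparc, the growth inhibitor Cdkn1c, the tropomyosin Tpm1, the G protein regulator Rgs5, the Wnt receptor Fzd1, Id3 and the globin Hbb-y. Capn6, a calpain relative, was at 176 CPM in anterior and 35.7 CPM in middle Epcam cells and at 250 and 40.1 CPM in anterior and middle cells of low Epcam. Cdkn1c was at 495 CPM in anterior and 195 CPM in middle Epcam cells, and at 983 and 341 CPM in anterior and middle cells of low Epcam.

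The 14 genes lower in anterior cells of both classes were 29.8% of the 47 lower in the Epcam class and 6.97% of the 201 lower in cells of low Epcam. Arg1 and Hoxb1 were among them, with the plasminogen activator Plat, the homeobox factor Prrx1, the sterol sensor Insig1 and Rps2. Rps2, a ribosomal protein gene, was at 947 CPM in anterior and 2964 CPM in middle Epcam cells. In cells of low Epcam it was at 1044 CPM in anterior and 2775 CPM in middle cells. Whether its reads are shared with processed copies of the gene was not tested. Opposite directions were seen for 6 genes. Ptn, Plpp3, Pdlim4, Hdgfl3 and Zfp639 were higher in anterior Epcam cells and lower in anterior cells of low Epcam, and Sema3c, a guidance ligand of the outflow tract, was the reverse. Ptn, the growth factor pleiotrophin, was at 96.8 CPM in anterior and 41.2 CPM in middle Epcam cells, and at 104.7 CPM in anterior and 300.1 CPM in middle cells of low Epcam. Sema3c was at 14.0 CPM in anterior and 45.3 CPM in middle Epcam cells, and at 41.0 CPM in anterior and 16.04 CPM in middle cells of low Epcam.

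**Figure D5:**
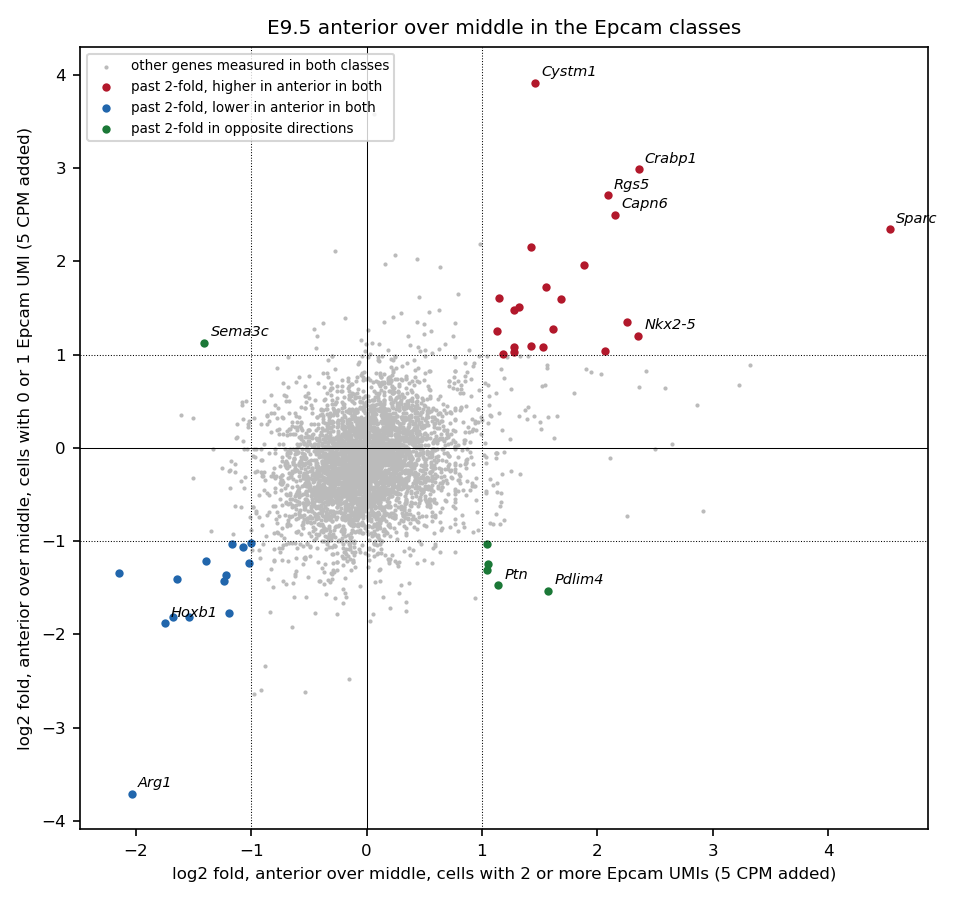
Log2 fold of anterior over middle (5 CPM added) in cells with 2 or more Epcam UMIs (x axis) and in cells with 0 or 1 (y axis) for the 4698 genes measured in both; dotted lines mark 2-fold. Red points are the 22 genes higher in anterior cells of both classes, blue points the 14 lower in both, and green points the 6 with opposite directions.

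At E10.5 the anterior library held 45 cells and 253936 UMIs and the middle library 331 cells and 2041441 UMIs, so low genes could not be followed. Only 1 E10.5 anterior cell was in the Epcam class. Over all cells, 1.95% of measured genes were higher and 5.97% lower in E10.5 anterior cells. In E10.5 cells of low Epcam these shares were 1.63% higher and 6.04% lower. Of the 12 genes highest in E9.5 anterior cells, 4 had 30 or more UMIs at E10.5: Crabp1 was past 2-fold higher again, Sparc was not past 2-fold, and Hbb-bh1 and Nkx2-1 were past 2-fold lower. Nkx2-1 had 0 UMIs in E10.5 anterior cells, where the floor of 3 UMIs is 11.8 CPM, against 15.2 CPM (10.3 to 21.6) in middle cells. By that floor its difference was not past 2-fold, and 26 of its 31 middle UMIs were in the 16 middle cells of the Epcam class. Of the 12 lowest, 8 had 30 or more UMIs at E10.5, and 4 of these were past 2-fold lower again, Aldh1a2, Wnt2, Foxf1 and Cldn11. Crabp1 was at 1122 CPM in anterior and 307 CPM in middle cells at E10.5. Foxf1 was at 3.94 CPM in anterior and 313 CPM in middle cells, Aldh1a2 at 3.94 and 78.4 CPM, and Wnt2 had 0 UMIs in anterior cells against 42.6 CPM in middle cells. Other genes past 2-fold at E9.5 had overlapping intervals at E10.5: Arg1 was at 51.2 CPM in anterior and 50.5 CPM in middle cells, Col3a1 at 189 and 164 CPM, Sparcl1 at 146 and 139 CPM, and Sparc at 177 and 171 CPM. The change between stages was not tested, since each stage had 1 library per position.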

How the data were processed

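The values are UMI counts per gene and cell, deposited by the authors as 1 matrix per stage, with 17492 genes at E9.5. Per the submitters' processing notes, Cell Ranger 3.0 and Seurat were used with mm10. The annotation is not given in the sources used here. Symbols were matched to GENCODE vM21 (GRCm38) for 98.9% of genes. No cell was removed. Counts were summed per position and class in Python 3.11.15 (scipy 1.17.1, pandas 2.3.3). Scrublet ran in scanpy 1.11.5 on each library with 20 principal components. TMM factors came from edgeR 4.0.16, used for scaling only. For shares at equal depth, cells were thinned to 11500 UMIs, which left out 5 anterior and 7 middle cells. The fold calculation was tested on simulated data with known folds. In each population, the text names the 12 highest and the 12 lowest genes past 2-fold that had 30 or more UMIs, a UMI in 20% or more of cells of the higher group and a thinned share in the same direction, together with members of 27 gene lists. Members, lists, markers and rules were chosen with earlier results of these data known. Some genes that the rule or the lists name are not reported here. Genes of the heat maps and pairs of genes were chosen after their values were seen. Alternatives changed the scaling, the added CPM, the count minimum, the Epcam threshold, the depth and the cells kept. Leaving out the fullest cell of a gene, or cells with cardiomyocyte markers, was chosen after seeing the data.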

Additional observations from a re-analysis of the deposited data

Results flagged for a closer look

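Hbb-bh1, an embryonic beta globin, differed in opposite directions at the 2 stages. At E9.5 it was at 50.1 CPM in anterior and 4.37 CPM in middle cells. At E10.5 it was at 138 CPM in anterior and 726 CPM in middle cells, a log2 fold of -2.36 (-2.86 to -1.89). The result is listed because both stages passed 2-fold in opposite directions and the E10.5 interval left out 0. Nkx2-1 was also past 2-fold in opposite directions, with 46 UMIs in anterior and 0 in middle cells at E9.5 and 0 in anterior and 31 in middle cells at E10.5, but its E10.5 interval reached 0. Of the 31 UMIs, 26 were in the 16 E10.5 middle cells of the Epcam class, and the E10.5 anterior library held 1 cell of that class. With 1 library per position neither difference was tested.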

How the results depend on the processing

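Counts of genes past 2-fold moved with the added CPM and the count minimum, while named genes kept their direction. Over all cells, the 180 higher and 114 lower genes became 279 and 195 with 1 CPM added and 77 and 32 with 20 CPM. The higher count was 307 at a minimum of 10 UMIs, 321 with no minimum and 109 after thinning, where 107 were lower (50.5% of both higher, against 61.2%), and a minimum of 100 UMIs gave 54 higher and 35 lower. In the Epcam class, the 169 higher and 87 lower became 76 and 32 with 20 CPM, 422 and 202 at 10 UMIs, 39 and 14 at 100 UMIs, 563 and 265 with no minimum, and 89 and 53 after thinning. In cells of low Epcam, the 106 higher and 244 lower became 70 and 82 with 20 CPM, 306 and 474 at 10 UMIs, 33 and 46 at 100 UMIs, and 544 and 618 with no minimum. There the higher count was 68 after thinning and 68 without cells of cardiomyocyte markers, and the lower count was 468 without cells marked by Scrublet, which left 13 anterior and 39 middle cells. The cause of these moves was not tested. Settings differed in the genes they keep: over all cells 10183 at 10 UMIs and 14502 with no minimum, against 7545 in the main setting. Adding 1 or 20 CPM kept the same 7545 genes, and the higher minimum, thinning and left-out cells kept fewer genes or cells. The list medians that changed sign were the sarcomere list without cells of cardiomyocyte markers, -0.73 in all cells and -0.15 in cells of low Epcam, and foregut and lung mesenchyme in cells of low Epcam, 0.087 at 100 UMIs and 0.019 with an Epcam threshold of 5. No named gene changed sign, and 335 of 336, 384 of 384 and 381 of 384 alternative values stayed past 2-fold in all cells, the Epcam class and cells of low Epcam. These totals include the count minimum settings, which cannot change the fold of a named gene. In the Epcam class they also include the setting without cells of cardiomyocyte markers, which removed no cell there. The named genes were picked for the largest folds, so the totals do not measure how stable other genes are. Shares of Epcam cells stayed between 53.7 and 70.4% in anterior and between 34.4 and 38.9% in middle cells. No paired analysis was possible because each position is 1 library and the labels give no replicate numbers. Depth limits genes under 30 UMIs, and 20 anterior cells of low Epcam allow a share of up to 15.0% (the floor of 3 cells) where no UMI was counted.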

Other observations

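Genes of cholesterol synthesis were lower in anterior cells of low Epcam. Of 17 measured genes, 10 were past 2-fold lower, none had a log2 fold above 0 and the median was -1.18, against 4.87% of genes lower and a median of -0.18 over all measured genes of that class. Hmgcs1, an early synthase of the pathway, was at 84.2 CPM (59.3 to 116) in 13 of 20 anterior cells and 267 CPM (234 to 303) in 38 of 40 middle cells. Idi1, isopentenyl diphosphate isomerase, was at 93.3 CPM (67.0 to 127) in 15 of 20 anterior cells and 260 CPM (227 to 296) in 37 of 40 middle cells. Summed over the 17 genes, single anterior cells ran from 363 to 2833 CPM with a median of 733, and single middle cells from 615 to 4513 CPM with a median of 1840, so the groups overlapped. In the Epcam class 1 of the 17 genes was lower, Insig1, and the median was -0.34.

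Genes of S, G2 and M phase gave a small difference. The 30 genes summed to cell medians of 3359 CPM in anterior and 4922 CPM in middle Epcam cells, and of 3392 CPM in anterior and 4884 CPM in middle cells of low Epcam, with overlapping ranges. Of the 30, Bub1 was past 2-fold in the Epcam class, lower in anterior cells, and Bub1 and Cdc6 in cells of low Epcam. These counts were near the shares of all measured genes that were lower, 1.54% in the Epcam class and 4.87% in cells of low Epcam. The list medians were -0.23 and -0.38, against -0.02 and -0.18 over all measured genes of the 2 classes. In the guidance and chemokine list, 6 of 12 measured genes were higher in anterior Epcam cells, Cxcl12, Nrp2, Unc5c, Unc5b, Slit2 and Efnb2, and Sema3c was lower, against 2.99% of all measured genes higher and 1.54% lower in that class. Cxcl12 had 1 UMI in middle cells and reached the minimum of 30 UMIs through its 37 anterior UMIs, so the count is given as a description. For Nrp2, a semaphorin co-receptor, 56.7% of the anterior UMIs were in 1 cell. Unc5b, a netrin receptor, was at 58.3 CPM (43.3 to 76.9) in 20 of 34 anterior and 19.2 CPM (10.51 to 32.3) in 8 of 21 middle Epcam cells. Fn1, the matrix protein fibronectin, was at 420 CPM (378 to 466) in anterior and 139 CPM (113 to 169) in middle Epcam cells, with cell medians of 270 and 119 CPM. Hand1, a factor of ventral mesoderm, had 49 UMIs in 3 of 34 anterior Epcam cells and 0 UMIs in middle ones, with 73.5% of them in 1 cell.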
